A study of Mus musculus with 24 samples.

Results

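The genes of 10 surface molecules through which T cells are helped or restrained are described here: the costimulatory receptors encoded by Cd28 and Icos, the inhibitory receptors encoded by Ctla4, Pdcd1, Lag3, Btla and Cd160, the receptor modulators encoded by Cd5 and Cd6, and Cd200, whose product is itself a ligand for an inhibitory receptor on other cells. The genes were taken by name and not by any measured value. All 10 were measured, 10 of 17097 genes and 16 of 45141 probe sets in the table. Where a gene had several probe sets, the one brightest on average across the 24 arrays stood for it, and the other probe sets of Cd28, Icos and Cd160 are described beside it. Values are log2 intensities of RNA, so they say nothing of the protein on the cell surface.

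The samples were naive CD4 T cells, sorted from mouse spleen and lymph nodes as CD4+CD62LhiCD44loCD25- cells. The first genotype was CD4(cre)Raptor(fl/fl), called Raptor-deficient here, in which Cre, driven by the Cd4 promoter, deletes the floxed part of the Raptor gene in T cells. Raptor is the subunit that defines mTORC1, a kinase complex that couples nutrients and antigen receptor signals to growth. The other genotype was labelled WT with the strain C57BL/6, a strain that the Raptor-deficient labels do not repeat, and it is called wild type here. Cells of each genotype were taken directly after sorting or were first stimulated for 8 h or 24 h with anti-CD3 and anti-CD28 antibodies bound to plates, with 4 samples in each of the 6 groups. The labels do not say that the replicates came from separate mice, so the p-values reflect only the scatter of these samples, which may be technical. Nor can fewer cells of a kind and less RNA per cell be told apart in such bulk samples.

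CD28 binds CD80 and CD86 on antigen-presenting cells and supplies the second signal that a naive T cell needs, and the stimulating antibody used here engages it. ICOS is a relative of CD28 that appears after activation. CTLA-4 competes with CD28 for the same ligands, PD-1 (Pdcd1) recruits the phosphatase SHP-2 after binding PD-L1 or PD-L2, LAG-3 binds MHC class II, and BTLA and CD160 bind the TNF receptor family member HVEM. CD5 dampens signals from the T cell receptor, CD6 binds the adhesion molecule ALCAM, and CD200 acts on CD200R of myeloid cells. Several of these genes lie side by side. In the RefSeq gene table, no protein-coding gene separates Cd28 from Ctla4 or Ctla4 from Icos on chromosome 1, Btla from Cd200 on chromosome 16, or Cd5 from Cd6 on chromosome 19.

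The upstream sequences of the 3 genes whose genotype differences were largest are shown because their patterns differed, as described further on. They come from RefSeq (GRCm38.p6), hold the 250 bases before the gene's start, and are written 5′ to 3′ on the gene's strand. Capitals mark GGAAA or its reverse complement TTTCC, the core letters recognised by NFAT, a factor that antigen receptor signals activate. The windows are chr1:94052554-94052803 (minus strand) for Pdcd1, chr16:45409054-45409303 (minus strand) for Cd200 and chr1:60908775-60909024 (plus strand) for Ctla4.
Pdcd1: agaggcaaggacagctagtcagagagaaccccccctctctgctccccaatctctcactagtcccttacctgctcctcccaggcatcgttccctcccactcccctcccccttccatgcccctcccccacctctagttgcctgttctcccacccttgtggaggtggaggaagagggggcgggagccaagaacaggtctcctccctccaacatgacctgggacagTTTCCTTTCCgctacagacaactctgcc
Cd200: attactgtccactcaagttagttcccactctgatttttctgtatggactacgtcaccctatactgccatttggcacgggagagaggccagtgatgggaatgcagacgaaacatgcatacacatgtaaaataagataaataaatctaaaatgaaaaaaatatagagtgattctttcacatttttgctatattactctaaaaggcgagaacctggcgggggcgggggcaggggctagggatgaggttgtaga
Ctla4: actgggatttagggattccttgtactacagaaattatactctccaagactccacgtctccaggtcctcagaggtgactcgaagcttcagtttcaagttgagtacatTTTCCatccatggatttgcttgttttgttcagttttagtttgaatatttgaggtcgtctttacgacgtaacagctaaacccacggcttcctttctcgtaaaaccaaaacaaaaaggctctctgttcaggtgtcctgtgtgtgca
The Pdcd1 window held 2 matches, which stand directly behind one another shortly before the start, the Ctla4 window 1 and the Cd200 window 0. Of all 32851 windows of this length in the RefSeq table, 55.6% held at least 1 match on either strand. Of the receptor genes, 6 had a window in the table, with 7 windows because Cd160 had 2. Searched on both strands, none of the 7 held TGANTCA, the letters bound by AP-1, against 6.75% of all windows, or CACGTG, an E-box, against 6.02%. A match is a run of letters and no measured site.

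Before the receptors, the labels were checked. Rptor, the deleted gene, averaged 6.49 ± 0.22 in Raptor-deficient and 7.51 ± 0.04 in wild-type cells at 8 h (SD, n = 4 each, 2.02-fold lower, limma adjusted p = 0.000292), and 6.45 ± 0.15 against 7.08 ± 0.13 at 24 h (1.56-fold lower, adjusted p = 0.0109). Unstimulated, it averaged 6.66 ± 0.60 in Raptor-deficient and 7.28 ± 0.20 in wild-type cells and did not pass the test (adjusted p = 0.075). By this probe set, unstimulated Raptor-deficient replicate 2 read 7.37, within the wild-type range of 7.04 to 7.49 and against its label, while the other 3 of its group read 5.92 to 6.79. By the dimmer Rptor probe set, 1434619_PM_at, that library read 5.73 and the group 5.47 to 5.85, all below the 6.17 to 6.28 of wild type. The unstimulated Ctla4, Btla and Cd6 differences without replicate 2 were -0.89, -0.41 and -0.73 and were called (adjusted p = 0.00387, 0.015 and 4.44e-05), as were all 7 response differences called with it. The files do not place its probes against the deleted part. Cd69, an early activation marker, was 8.28-fold higher at 8 h than in unstimulated cells in Raptor-deficient samples and 13.9-fold higher in wild-type samples. None of the 7 CD4 T cell markers lay under the median of all values, 5.22, in any group. Group means under that median are near background, and folds against them are folds of measured intensities only. Unstimulated Raptor-deficient replicate 1 stood apart, with a residual SD over genes of 0.280, followed by replicates 2 and 3 of that group at 0.222 and 0.206, while the other arrays lay between 0.119 and 0.172. Replicate 1 of both 24 h groups carried liver RNA, with Alb at 9.11 in the Raptor-deficient and 9.02 in the wild-type array against at most 6.42 in the other 24 h arrays. For the receptor genes, called genotype and response differences that rest on these arrays are given with and without them, by gene. Other calls that change without them are given in part. Changes on stimulation within a genotype are mostly given with all arrays only.

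**Figure D1:**
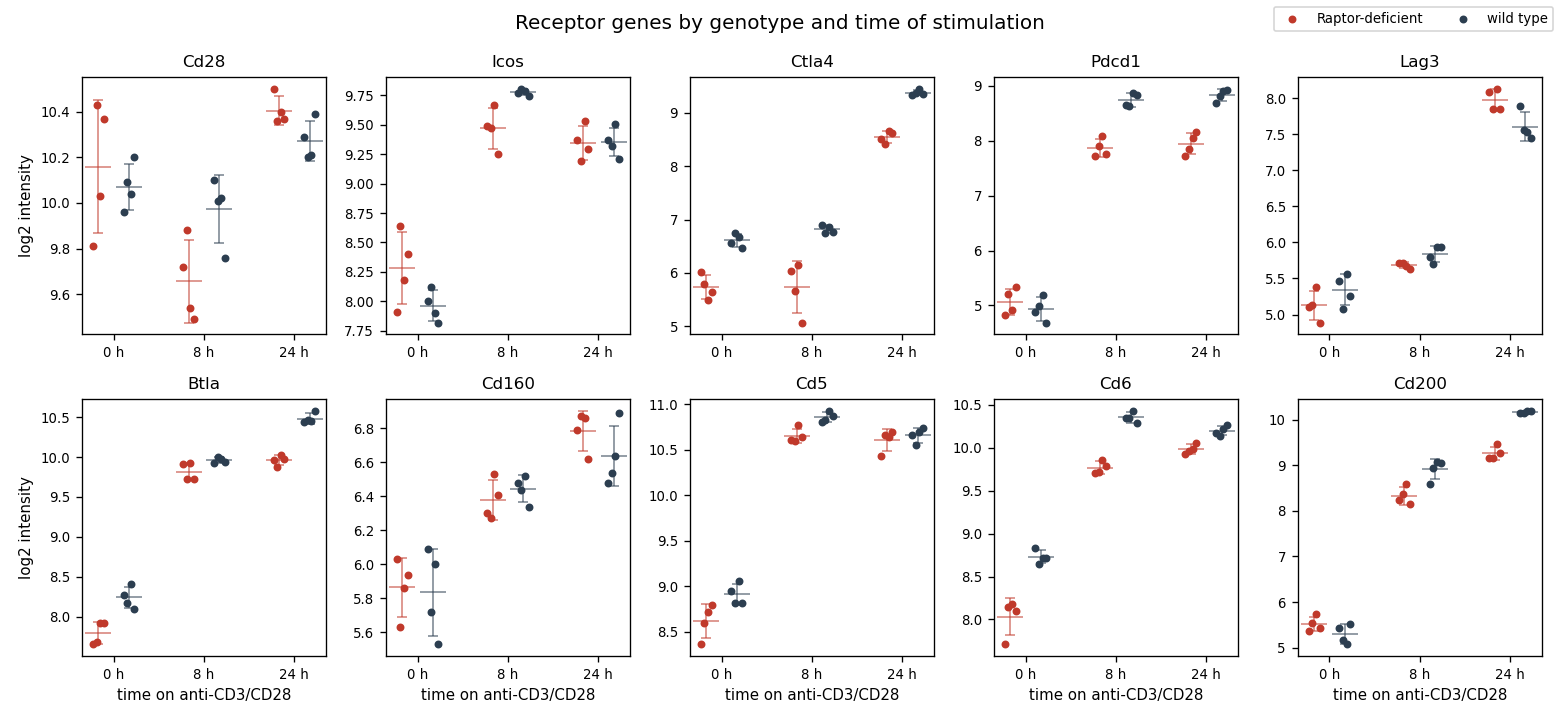
Log2 intensity (vertical axis) of the probe set that stands for each receptor gene, by time on anti-CD3/CD28 (horizontal axis), with 1 point per sample, the group mean as a long line and the SD as bars (n = 4). Ctla4 points of Raptor-deficient cells (red) lie below those of wild type (dark) at every time. Pdcd1 points separate downward at 8 h and 24 h. Cd200 points separate downward at 24 h and overlap slightly at 8 h, and Lag3 averages higher in Raptor-deficient cells at 24 h.

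Stimulation raised most of these genes in both genotypes. At 8 h against unstimulated cells, 8 of the 10 were called higher and Cd28 lower in Raptor-deficient cells, where 32.8% of all genes were called, 16% higher and 16.8% lower. In wild-type cells 8 were called higher and 0 lower, where 39.7% of all genes were called, 18.9% higher and 20.8% lower. At 24 h against unstimulated cells, 9 of 10 were higher and 0 lower in Raptor-deficient cells, where 39.1% of all genes were called, 21.6% higher and 17.5% lower. In wild-type cells 9 were again higher and 0 lower, where 49.7% of all genes were called, 25.4% higher and 24.3% lower. Cd28, by the probe set that stands for it, was the gene not called at 24 h in either genotype, and Ctla4 was not called at 8 h in either. The Cd28 changes depended on the probe set, as described further on. Between 8 h and 24 h, 5 of the 10 were called higher and 0 lower in Raptor-deficient cells (Cd28, Ctla4, Lag3, Cd160 and Cd200), where 23% of all genes were called, 15.2% higher and 7.81% lower. In wild-type cells 4 were higher (Ctla4, Lag3, Btla and Cd200) and Icos lower, where 28.3% of all genes were called, 17.4% higher and 11% lower. The median change over the 10 genes at 8 h was 1.46 in Raptor-deficient and 1.67 in wild-type cells on the log2 scale, beside 0.00 and -0.03 over all genes. A call is a two-sided limma test with a Benjamini-Hochberg adjusted p under 0.05 over all 17097 genes, and comparisons that use the same unstimulated samples are not independent of each other.

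**Figure D2:**
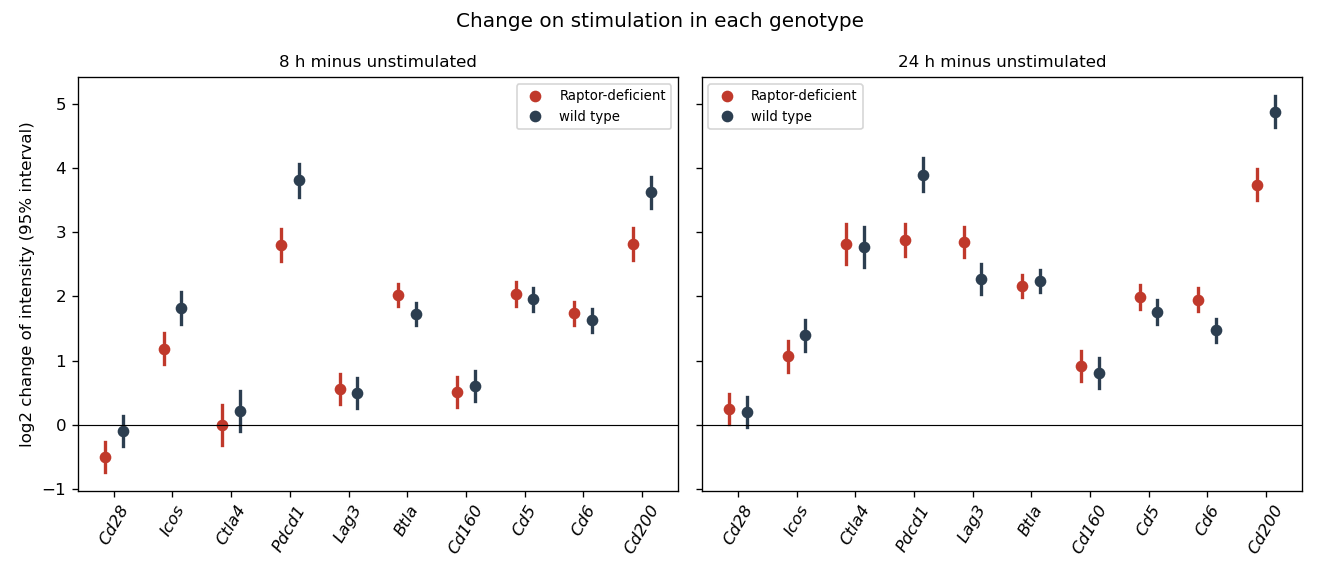
Log2 change of each receptor gene at 8 h (left) and 24 h (right) minus unstimulated, with its 95% interval, for Raptor-deficient (red) and wild-type (dark) cells. Pdcd1 and Cd200 changed more in wild-type cells at both times, while the Ctla4 intervals of the genotypes overlap at both times.

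Raptor-deficient cells differed from wild type chiefly by lower values, and which genes were lower depended on the time. Of the 10, 3 were lower and 0 higher in unstimulated Raptor-deficient cells (Ctla4, Btla and Cd6), where 1.94% of all genes were called, 0.702% higher and 1.24% lower. At 8 h 4 were lower and 0 higher (Ctla4, Pdcd1, Cd6 and Cd200), where 12.9% of all genes were called, 4.14% higher and 8.77% lower. At 24 h 4 were lower (Ctla4, Pdcd1, Btla and Cd200) and Lag3 was higher, where 21.5% of all genes were called, 8.35% higher and 13.1% lower. The 4 samples of one genotype all lay on one side of the 4 of the other for 4, 6 and 5 of the 10 genes at the 3 times, as they did for 5.48%, 19.1% and 28.4% of all genes. The median difference over the 10 genes, Raptor-deficient minus wild type, was -0.09, -0.31 and -0.13 at the 3 times, beside -0.01, 0.01 and 0.01 over all genes. Ctla4 was the 1 receptor gene called lower at all 3 times, as were 37 genes in all, 0.216% of those tested, and none of the 10 was called higher at all 3 times, as 0.193% of all genes were.

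**Figure D3:**
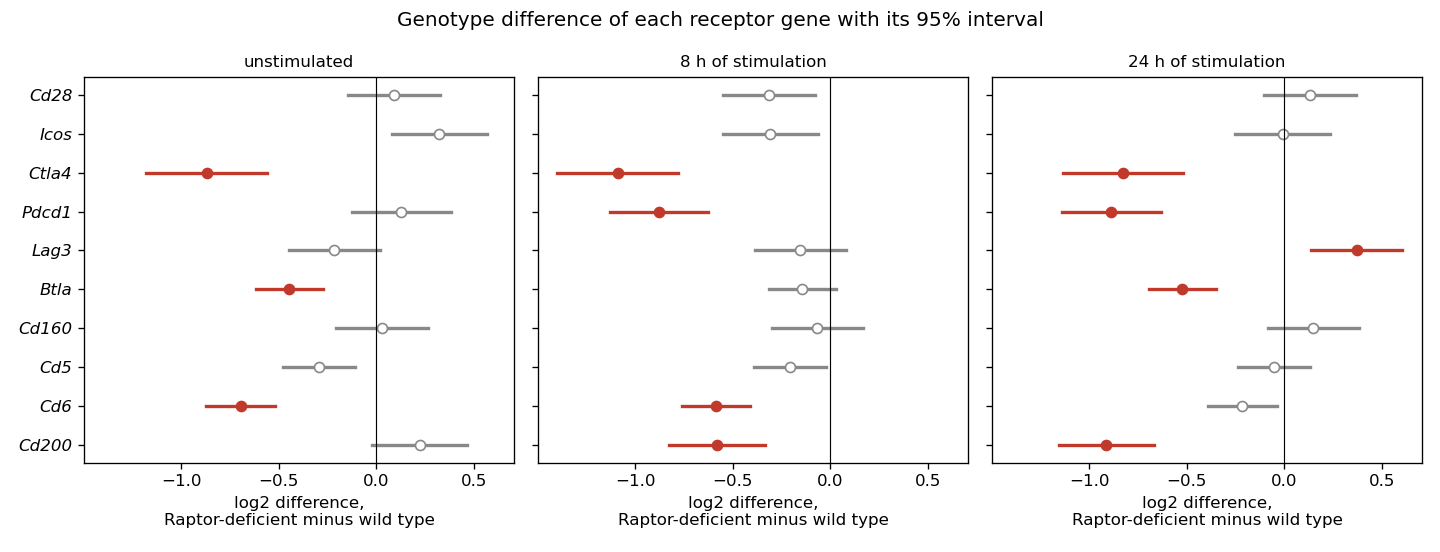
Difference in log2 intensity, Raptor-deficient minus wild type, for each receptor gene with its 95% interval, in unstimulated cells and after 8 h and 24 h. Filled red points passed the test over all genes; Ctla4 is filled in all 3 panels, and Lag3 at 24 h is the one filled point to the right of 0.

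CD28 and its relative ICOS, the costimulatory pair, were not called between the genotypes at any time by the probe sets that stand for them, though a second probe set of each was called at 8 h. Cd28 read 9.81, 10.43, 10.03 and 10.37 in unstimulated Raptor-deficient samples, against 9.96, 10.09, 10.04 and 10.20 in wild type. At 8 h it read 9.72, 9.88, 9.54 and 9.49, against 10.10, 10.01, 10.02 and 9.76 in wild type, and at 24 h 10.50, 10.36, 10.40 and 10.37, against 10.29, 10.20, 10.21 and 10.39. All neighbouring groups overlapped when the 6 group means were put in order. The differences were 0.09 (95% interval -0.15 to 0.32), -0.32 (-0.55 to -0.08, adjusted p = 0.0705) and 0.13 (-0.10 to 0.37) at the 3 times. Its second probe set, 1417597_PM_at, read 9.74, 9.90, 9.55 and 9.79 in Raptor-deficient cells at 8 h against 9.97 to 10.05 in wild type, which do not overlap. It passed the test over all probe sets at that time (difference -0.25, adjusted p = 0.0465), a call that was lost under 21 of 33 other settings (adjusted p up to 0.181). The selected probe set passed under 10 of 34. Within Raptor-deficient cells Cd28 was 1.42-fold lower at 8 h than in unstimulated cells (adjusted p = 0.000893) and 1.68-fold higher at 24 h than at 8 h (adjusted p = 1.56e-05). The 8 h and unstimulated samples overlapped. Probe set 1417597_PM_at averaged 9.74 at 8 h and 9.93 unstimulated, a change called only under 3 of 33 other settings. In wild-type cells the changes were -0.10 (adjusted p = 0.556) and 0.30 (adjusted p = 0.0513), of which the second was called under 14 of 34 other settings. At 24 h probe set 1417597_PM_at read 10.34 to 10.52 in Raptor-deficient and 10.26 to 10.39 in wild-type cells. Its unstimulated values were lower, at 9.76 to 10.04 and 9.96 to 10.10. With the mean of all probe sets, Cd28 was called higher at 24 h than in unstimulated cells in both genotypes. The genotype difference in the change to 8 h was -0.40 (-0.74 to -0.07) and did not pass (adjusted p = 0.145). Without unstimulated Raptor-deficient replicate 1 it was -0.52 and was called (adjusted p = 0.029), as it was with array weights.

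Icos responded to 8 h of stimulation less in Raptor-deficient cells. Its values were 7.91, 8.64, 8.18 and 8.40 in unstimulated Raptor-deficient samples, against 8.00, 8.12, 7.90 and 7.82 in wild type. At 8 h they were 9.49, 9.47, 9.67 and 9.25, against 9.77, 9.80, 9.79 and 9.74 in wild type, without overlap. At 24 h the groups overlapped, at 9.37, 9.19, 9.53 and 9.29 against 9.37, 9.32, 9.51 and 9.21. Stimulation for 8 h raised the gene 2.27-fold in Raptor-deficient and 3.52-fold in wild-type cells, and the difference between these changes, -0.63 on the log2 scale (-0.97 to -0.29), was called (adjusted p = 0.022). Single comparisons at 1 time were not: 0.32 (0.08 to 0.57, adjusted p = 0.183) unstimulated and -0.31 (-0.55 to -0.07, adjusted p = 0.0909) at 8 h, where 6 of 34 other settings made a call. At 8 h probe set 1421931_PM_at averaged 9.19 ± 0.13 in Raptor-deficient and 9.60 ± 0.11 in wild-type cells, without overlap, and was called over all probe sets (-0.41, adjusted p = 0.00992). Probe set 1421930_PM_at averaged 9.48 ± 0.11 against 9.74 ± 0.12, also without overlap, and was not (-0.26, adjusted p = 0.0985). Unstimulated and at 24 h these 2 probe sets overlapped and were not called, with differences of 0.17 and 0.32 unstimulated and 0.04 and 0.00 at 24 h. The response difference is the sum of a higher Raptor-deficient mean before stimulation and a lower one after it. Without unstimulated Raptor-deficient replicate 1, which read lowest of its group, the unstimulated difference was 0.45 (adjusted p = 0.0349), the 8 h difference was called too (adjusted p = 0.0398), and the difference in response was -0.75 (adjusted p = 0.00255). Without replicates 2 and 3 of that group the response difference was -0.51 and was not called (adjusted p = 0.0572). All 3 Icos probe sets were called for this response difference over all probe sets, at -0.63, -0.58 and -0.58 with adjusted p = 0.0297, 0.0203 and 0.0166. The selected one, 1436598_PM_at, lost this call under 10 of 33 other settings (adjusted p up to 0.0764). Leaving out unstimulated Raptor-deficient replicate 2 was among them. Probe set 1421931_PM_at lost it under 3 and 1421930_PM_at under 1. By 24 h the difference in response was -0.33 (-0.67 to 0.02, adjusted p = 0.227), or -0.45 and called without that replicate 1 (adjusted p = 0.0449), and Icos had fallen 0.42 from its 8 h level in wild-type cells (adjusted p = 0.00723).

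Ctla4 was lower in Raptor-deficient cells at every time, and no genotype difference in its change on stimulation was detected. Unstimulated Raptor-deficient samples read 6.02, 5.79, 5.50 and 5.64, against 6.56, 6.74, 6.68 and 6.47 in wild type. At 8 h the values were 6.04, 5.67, 6.15 and 5.07, against 6.90, 6.75, 6.87 and 6.76 in wild type, and at 24 h 8.51, 8.42, 8.66 and 8.62, against 9.34, 9.37, 9.45 and 9.36. Every Raptor-deficient sample lay below every wild-type sample at each time. The gene was 1.83-fold lower unstimulated (5.74 ± 0.23 against 6.61 ± 0.12, SD, n = 4 each, limma adjusted p = 0.00137). It was 2.13-fold lower at 8 h (5.73 ± 0.49 against 6.82 ± 0.08, adjusted p = 1.5e-05) and 1.77-fold lower at 24 h (8.55 ± 0.11 against 9.38 ± 0.05, adjusted p = 0.000175). Without unstimulated Raptor-deficient replicate 1 the unstimulated difference was -0.97 (adjusted p = 0.000928), and without replicates 2 and 3 it was -0.78 (adjusted p = 0.0184). Without replicate 1 of both 24 h groups the 24 h difference was -0.82 (adjusted p = 0.00203).

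Neither genotype showed a called Ctla4 change at 8 h, with -0.01 (-0.32 to 0.30) in Raptor-deficient and 0.21 (-0.10 to 0.52) in wild-type cells. At 24 h the gene was 7.03-fold above unstimulated cells in Raptor-deficient samples (adjusted p = 2.94e-14) and 6.81-fold above in wild-type samples (adjusted p = 1.59e-14). The difference between those changes was 0.05, with an interval of -0.39 to 0.48 (adjusted p = 0.933). In the order of the 6 group means, only the Raptor-deficient 8 h and unstimulated groups overlapped, below wild type unstimulated, wild type 8 h, Raptor-deficient 24 h and wild type 24 h.

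Pdcd1, the gene of PD-1, had no called genotype difference before stimulation and rose less in Raptor-deficient cells. Unstimulated it read 4.82, 5.21, 4.91 and 5.33 in Raptor-deficient and 4.88, 4.99, 5.20 and 4.69 in wild-type samples, overlapping and near background (difference 0.13, -0.13 to 0.38, adjusted p = 0.736). At 8 h it read 7.72, 7.91, 8.08 and 7.75 in Raptor-deficient samples, against 8.65, 8.63, 8.87 and 8.83 in wild type. Values at 24 h were 7.73, 7.84, 8.05 and 8.16, against 8.69, 8.81, 8.91 and 8.92 in wild type. The groups did not overlap at either time, and within each genotype the 8 h and 24 h samples overlapped, with changes of 0.08 in Raptor-deficient (adjusted p = 0.722) and 0.09 in wild-type cells (adjusted p = 0.656) between these times. Pdcd1 was 1.84-fold lower at 8 h (7.86 ± 0.17 against 8.74 ± 0.12, adjusted p = 1.81e-05) and 1.85-fold lower at 24 h (7.95 ± 0.19 against 8.83 ± 0.11, adjusted p = 4.48e-06). Its rise over unstimulated cells at 8 h was 2.80 on the log2 scale in Raptor-deficient and 3.80 in wild-type cells, and at 24 h it was 7.36-fold higher in Raptor-deficient and 14.9-fold higher in wild-type cells. The response was smaller by 1.01 on the log2 scale at both times, with adjusted p = 0.00077 at 8 h and 0.000179 at 24 h. Without unstimulated Raptor-deficient replicate 1 these values were -1.09 and -1.10, without replicates 2 and 3 -1.01 and -1.02, and all 4 were called. Removing replicate 1 of both 24 h groups left the 24 h genotype difference at -0.86 (adjusted p = 7.65e-05) and the response difference at -0.99 (adjusted p = 0.000723).

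Lag3 was the receptor gene that was higher in Raptor-deficient cells at 24 h. Unstimulated values were 5.11, 5.13, 5.38 and 4.89 in Raptor-deficient and 5.47, 5.08, 5.56 and 5.26 in wild-type samples, around the median of all values. At 8 h they were 5.71, 5.72, 5.68 and 5.63, against 5.80, 5.70, 5.93 and 5.93 in wild type. At 24 h they were 8.09, 7.85, 8.12 and 7.85, against 7.89, 7.56, 7.53 and 7.44, so wild-type replicate 1 lay above the 2 lowest Raptor-deficient samples. The gene was 1.29-fold higher in Raptor-deficient cells at 24 h (7.98 ± 0.15 against 7.61 ± 0.20, adjusted p = 0.0192), and 0.43 higher on the log2 scale without replicate 1 of both groups (adjusted p = 0.0179). That call was lost under 5 of 34 other settings, in which the adjusted p reached 0.0767. Its rise at 24 h over unstimulated cells was 7.21-fold in Raptor-deficient and 4.8-fold in wild-type cells, a difference of 0.59 (0.26 to 0.92, adjusted p = 0.0147). Without unstimulated Raptor-deficient replicate 1 that difference was 0.58 (adjusted p = 0.0203), without replicates 2 and 3 it was 0.71 (adjusted p = 0.00545), and without replicate 1 of both 24 h groups 0.64 (adjusted p = 0.0116). The rise came after 8 h, by when it was 1.47-fold in Raptor-deficient and 1.41-fold in wild-type cells.

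Btla was lower in Raptor-deficient cells before stimulation and at 24 h. It read 7.66, 7.68, 7.92 and 7.92 in unstimulated Raptor-deficient samples, against 8.27, 8.17, 8.41 and 8.10 in wild type. At 8 h the values were 9.91, 9.72, 9.92 and 9.72, against 9.93, 9.94 and 9.98 in 3 wild-type samples with replicate 2 just above them, and at 24 h 9.96, 9.88, 10.02 and 9.98, against 10.44, 10.46, 10.45 and 10.58. Genotypes did not overlap at any time, but at 8 h the highest Raptor-deficient sample lay just under the lowest wild-type one. The differences were 1.36-fold lower unstimulated (7.79 ± 0.14 against 8.24 ± 0.13, adjusted p = 0.00305) and 1.44-fold lower at 24 h (9.96 ± 0.06 against 10.48 ± 0.07, adjusted p = 3.25e-05), or -0.54 on the log2 scale without replicate 1 of both 24 h groups (adjusted p = 0.000428). At 8 h the difference was -0.14 (-0.31 to 0.03, adjusted p = 0.315). The unstimulated call was kept without Raptor-deficient replicate 1 (-0.40, adjusted p = 0.0128) and without replicates 2 and 3 (-0.45, adjusted p = 0.0113), and was lost when only the groups compared were fitted (adjusted p = 0.17). Between 8 h and 24 h Btla rose in wild-type cells by 0.52 (adjusted p = 1.97e-05), against 0.14 (adjusted p = 0.263) in Raptor-deficient cells. The difference between these changes, -0.38, did not pass (adjusted p = 0.0667), but did under 7 of 34 other settings (adjusted p down to 0.0216). Among these was the fit without unstimulated Raptor-deficient replicate 1 (adjusted p = 0.0465).

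Cd160, which shares the ligand HVEM with BTLA, was measured by 4 probe sets that did not move together. The brightest, 1420067_PM_at, read 6.03, 5.63, 5.86 and 5.94 in unstimulated Raptor-deficient and 6.09, 5.72, 6.00 and 5.53 in wild-type samples, and 6.79, 6.87, 6.86 and 6.62 against 6.48, 6.54, 6.64 and 6.89 at 24 h. It was 1.89-fold higher at 24 h than in unstimulated cells in Raptor-deficient samples (adjusted p = 1.6e-07 over genes) and 1.74-fold higher in wild-type samples (adjusted p = 9.89e-07). Probe set 1456847_PM_at went the other way: it read 5.80, 6.24, 6.19 and 6.30 in unstimulated Raptor-deficient and 6.22, 6.22, 6.11 and 6.45 in wild-type samples, and 5.52, 5.64, 5.74 and 5.96 against 5.63, 5.46, 5.38 and 5.33 at 24 h. Over all probe sets, its change at 24 h was -0.42 in Raptor-deficient (adjusted p = 0.00536) and -0.80 in wild-type cells (adjusted p = 2.39e-06). Without unstimulated Raptor-deficient replicates 2 and 3 the change in Raptor-deficient cells was -0.34 and was not called (adjusted p = 0.0767). The remaining 2, 1420066_PM_s_at and 1420396_PM_at, rose by 0.98 and 0.79 in Raptor-deficient and by 0.84 and 0.43 in wild-type cells, and all 4 of these changes were called. Unstimulated, 1420066_PM_s_at averaged 4.64 in Raptor-deficient and 4.58 in wild-type cells, near background. At 24 h it averaged 5.62 and 5.42, just above the median of all values. Thus 3 probe sets rose and 1 fell at 24 h in both genotypes, and the direction for the gene depends on the probe set. None of the 4 was called between the genotypes at any time. At 24 h the genotype differences of 1420067_PM_at, 1420066_PM_s_at, 1420396_PM_at and 1456847_PM_at were 0.15, 0.19, 0.23 and 0.26, and the mean of all 4 was called higher in Raptor-deficient cells at that time (adjusted p = 0.0396).

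**Figure D4:**
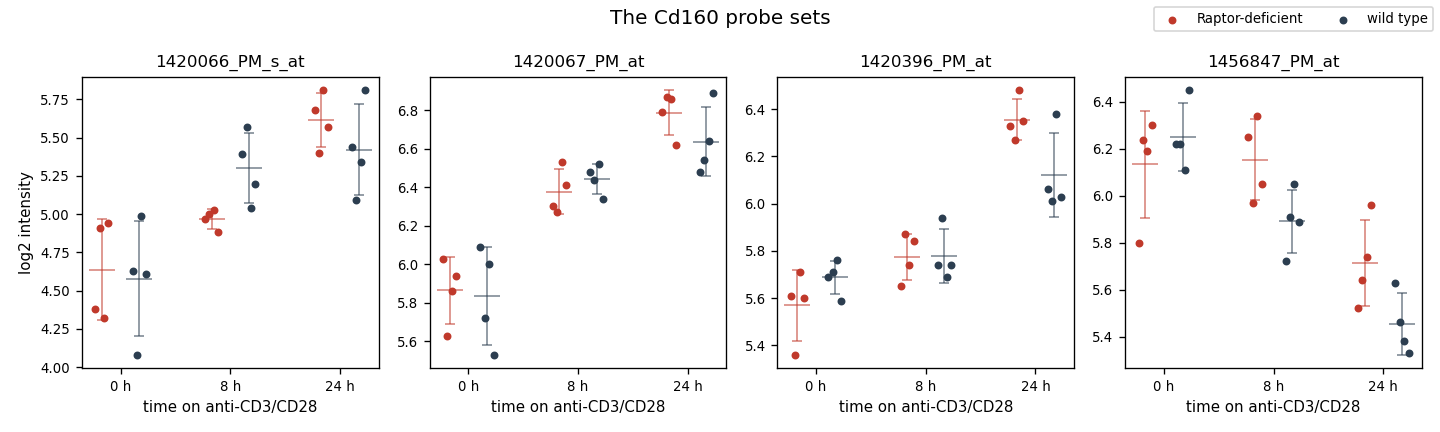
Log2 intensity of the 4 Cd160 probe sets by time on anti-CD3/CD28, 1 point per sample with group means and SD (n = 4), Raptor-deficient in red and wild type dark. The first 3 panels rise with time and the fourth, 1456847_PM_at, falls in both genotypes.

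CD5 and CD6 are related scavenger receptor family proteins, and their neighbouring genes behaved in part differently. Cd6 read 7.71, 8.14, 8.18 and 8.10 in unstimulated Raptor-deficient samples, against 8.83, 8.65, 8.72 and 8.72 in wild type. At 8 h it read 9.70, 9.72, 9.86 and 9.79, against 10.34, 10.35, 10.43 and 10.29 in wild type, and at 24 h 9.93, 9.96, 9.99 and 10.06, against 10.17, 10.14, 10.22 and 10.26. No 2 neighbouring groups overlapped in the order of the 6 means. The gene was 1.62-fold lower unstimulated (8.03 ± 0.22 against 8.73 ± 0.07, adjusted p = 2.82e-05) and 1.5-fold lower at 8 h (9.77 ± 0.08 against 10.35 ± 0.06, adjusted p = 3.23e-05). At 24 h the difference was -0.21 (-0.39 to -0.04) and did not pass (adjusted p = 0.0797), though it did under 4 of 34 other settings. Cd6 rose over 24 h by 3.86-fold in Raptor-deficient and 2.77-fold in wild-type cells, a difference in response of 0.48 (0.23 to 0.73, adjusted p = 0.00818). Without unstimulated Raptor-deficient replicate 1, which read lowest, the unstimulated difference was -0.59 (adjusted p = 5.05e-05) and the response difference 0.37 (adjusted p = 0.0115). Without replicates 2 and 3 they were -0.82 (adjusted p = 2.18e-05) and 0.61 (adjusted p = 0.00151). Without replicate 1 of both 24 h groups the response difference was 0.49 (adjusted p = 0.0211).

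Cd5 was not called between the genotypes. Its values were 8.36, 8.60, 8.72 and 8.79 in unstimulated Raptor-deficient samples, against 8.95, 8.82, 9.06 and 8.82 in wild type, and 10.61, 10.60, 10.77 and 10.64 against 10.81, 10.83, 10.93 and 10.87 at 8 h. The groups did not overlap at these times, with differences of -0.29 (-0.48 to -0.11, adjusted p = 0.0929) and -0.21 (-0.39 to -0.02, adjusted p = 0.147). At 24 h they overlapped, at 10.43, 10.66, 10.64 and 10.70 against 10.66, 10.55, 10.70 and 10.74 (difference -0.05, -0.24 to 0.13). The rise at 8 h was 4.11-fold in Raptor-deficient and 3.86-fold in wild-type cells.

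Cd200 rose on stimulation in both genotypes, and its response was smaller in Raptor-deficient cells. Unstimulated it read 5.37, 5.54, 5.73 and 5.44 in Raptor-deficient and 5.44, 5.17, 5.07 and 5.52 in wild-type samples, which overlapped (difference 0.22, -0.02 to 0.47, adjusted p = 0.428). The means, 5.52 and 5.30, lay just above the median of all values, so folds against them are folds of measured intensities only. At 8 h it read 8.24, 8.36, 8.60 and 8.14, against 8.59, 8.94, 9.07 and 9.05 in wild type. There the highest Raptor-deficient sample lay just above the lowest wild-type one. By 24 h it read 9.15, 9.16, 9.46 and 9.26, against 10.15, 10.15, 10.19 and 10.19, with no overlap. Cd200 was 1.49-fold lower at 8 h (8.33 ± 0.20 against 8.91 ± 0.22, adjusted p = 0.00122) and 1.88-fold lower at 24 h (9.26 ± 0.15 against 10.17 ± 0.03, adjusted p = 1.76e-06). Over unstimulated cells it was 7.04-fold higher at 8 h in Raptor-deficient and 12.3-fold in wild-type cells, and at 24 h 13.4-fold and 29.3-fold higher. The response differences were -0.80 at 8 h (-1.15 to -0.46, adjusted p = 0.00443) and -1.13 at 24 h (-1.48 to -0.79, adjusted p = 2.59e-05). Without unstimulated Raptor-deficient replicates 2 and 3 they were -0.69 (adjusted p = 0.0184) and -1.02 (adjusted p = 0.000403), and without replicate 1 of that group -0.85 (adjusted p = 0.00299) and -1.18 (adjusted p = 2.18e-05). Without replicate 1 of both 24 h groups the 24 h genotype difference was -0.88 (adjusted p = 7.03e-05) and the response difference -1.11 (adjusted p = 0.000252). Its neighbour on the chromosome, Btla, had response differences of 0.30 (0.06 to 0.54, adjusted p = 0.133) and -0.08 (adjusted p = 0.763).

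Tests of the response itself thus called 3 of the 10 genes from unstimulated to 8 h, all with the smaller change in Raptor-deficient cells (Icos, Pdcd1 and Cd200), where 6.29% of all genes were called, 1.94% with the higher and 4.36% with the lower change in Raptor-deficient cells. From unstimulated to 24 h they called 4, with Pdcd1 and Cd200 changing less and Lag3 and Cd6 more in Raptor-deficient cells, where 13.3% of all genes were called, 5.26% higher and 8.01% lower. From 8 h to 24 h none was called by limma (4 had an unadjusted p under 0.05), where 4.53% of all genes were, 1.33% higher and 3.2% lower. The smallest adjusted p there was 0.0637, for Lag3 (0.53), which passed without replicate 1 of both 24 h groups (adjusted p = 0.0464) and without unstimulated Raptor-deficient replicates 2 and 3 (adjusted p = 0.0431), and Cd6 (0.37) passed without unstimulated Raptor-deficient replicate 1 (adjusted p = 0.0173).

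The genes most like each receptor over the 24 samples, by Pearson's r among 10263 genes whose highest group mean reached the median of all values, are given as a description. Closest to Pdcd1 were Shmt2, an enzyme of mitochondrial one-carbon metabolism (r = 0.995), Fam162a (0.994) and Rsl1d1 (0.992), and closest to Cd200 were Snx9 (0.992), the branched-chain amino acid transaminase gene Bcat1 (0.991) and Dctd (0.991). Btla was most like Psat1, an enzyme of serine synthesis (0.990), Ppat (0.988) and Mif (0.987), and Cd5 was most like Sla (0.995), Rgs3 (0.994) and Rrp1b (0.991). Ctla4 had Hsd17b10 (0.971), Ptgr2 (0.967) and Tspan31 (0.967), and Lag3 had Klhdc2 (0.969), Niban1 (0.964) and Smo (0.964). The nearest to Icos were Utp20 (0.978), Qtrt2 (0.977) and Mtdh (0.977), and to Cd6 Fkbp1a (0.988), Hdac7 (0.984) and Eif3c (0.982). Cd28 had its best match in Txndc12 (0.931) and Cd160 in Prpf8 (0.940). All points share the same 6 groups and libraries, so no p is given.

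The ligands of these receptors were measured in the same T cells. Of 10 ligand and counter-receptor genes, 0 were called between the genotypes unstimulated, 2 were higher and 0 lower in Raptor-deficient cells at 8 h, and 2 were higher and 1 lower at 24 h. Of all genes, 1.94%, 12.9% and 21.5% were called at the 3 times, the shares beside which these counts and those of the next 3 lists stand. Cd274, the gene of the PD-1 ligand PD-L1, was 1.39-fold higher at 8 h (adjusted p = 0.0105) and 1.47-fold higher at 24 h (8.79 ± 0.11 against 8.24 ± 0.07, adjusted p = 0.00142). Pdcd1lg2, which encodes the other PD-1 ligand PD-L2, was 1.43-fold lower at 24 h (7.55 ± 0.19 against 8.07 ± 0.05, adjusted p = 0.000349). Lgals3, the gene of galectin-3, averaged 6.99 ± 0.28 in Raptor-deficient and 5.64 ± 0.29 in wild-type cells at 24 h (2.56-fold higher, adjusted p = 5.6e-09). Cd80 was 1.39-fold higher at 8 h (adjusted p = 0.00638), at 5.29 ± 0.19 in Raptor-deficient cells, just above the median of all values, and 4.82 ± 0.10 in wild-type cells, under it. The list's median differences at the 3 times were 0.05, 0.12 and 0.11.

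Of 22 measured genes for other costimulatory and inhibitory receptors, 2 were higher and 0 lower unstimulated, 2 higher and 4 lower at 8 h, and 6 higher and 3 lower at 24 h in Raptor-deficient cells. Slamf6, a SLAM family receptor, read 1.99-fold lower at 8 h (adjusted p = 1e-06) and 3.16-fold lower at 24 h (7.45 ± 0.17 against 9.11 ± 0.14, adjusted p = 1.5e-11). Cd226, whose product activates T cells, was 1.79-fold lower at 24 h (adjusted p = 2.31e-07). Cd27, a TNF receptor family costimulator, was 1.97-fold higher at that time (adjusted p = 4.28e-06). Cd2, an adhesion and costimulatory receptor, was higher at all 3 times, by 1.36-fold, 1.33-fold and 1.75-fold (adjusted p = 0.00421, 0.00149 and 7.56e-08). Median differences of this list were -0.02, -0.06 and 0.15, beside the medians over all genes given above.

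Signalling molecules below the receptors went both ways. Of 19 measured, 1 was higher and 0 lower unstimulated, 2 higher and 3 lower at 8 h, and 4 higher and 4 lower at 24 h in Raptor-deficient cells. Ptpn11, the gene of the phosphatase SHP-2 that PD-1 recruits, was 1.6-fold lower at 24 h (adjusted p = 8.26e-05), and Ptpn6, the gene of its relative SHP-1, was 1.69-fold higher unstimulated (7.09 ± 0.35 against 6.33 ± 0.18, adjusted p = 0.000737). At 24 h Cblb, a ubiquitin ligase that restrains CD28-independent activation, was 2.11-fold higher (adjusted p = 0.000689) and Ptpn22, a phosphatase acting on receptor-proximal kinases, 1.74-fold higher (adjusted p = 1.54e-06). Their median differences were -0.06, -0.05 and 0.03.

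Among 15 measured transcription factors known to act on these receptor genes, 1 was higher and 1 lower unstimulated, 4 were higher and 0 lower at 8 h, and 5 higher and 3 lower at 24 h in Raptor-deficient cells. The NR4A nuclear receptors, which antigen receptor signals induce, were among the higher ones. Nr4a1 was 1.5-fold, 1.6-fold and 2.02-fold higher at the 3 times (adjusted p = 0.0023, 7.28e-05 and 5.95e-08). Nr4a2 was 2.4-fold and 2.82-fold higher at 8 h and 24 h, and Nr4a3 1.74-fold and 1.77-fold. Bcl6, a repressor that directs follicular helper cells, was 1.61-fold higher at 8 h (adjusted p = 0.0005) and 2.38-fold higher at 24 h (8.67 ± 0.10 against 7.42 ± 0.21, adjusted p = 3.48e-08). The median differences of this list were 0.13, 0.07 and 0.00.

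Markers of other cells moved with genotype in part, and their share in the receptor values was not tested. Of all genes, 1.94%, 12.9% and 21.5% were called between the genotypes at the 3 times, beside which the marker counts stand. Of 6 measured B cell markers, 0, 1 and 3 were called higher in Raptor-deficient cells at the 3 times and none lower. At 24 h Pax5, a defining B cell factor, was 2.59-fold higher (6.08 ± 0.37 against 4.70 ± 0.17, adjusted p = 3.55e-06), H2-Aa 0.71 higher on the log2 scale (adjusted p = 2.57e-06) and Cd79a 1.56-fold higher (adjusted p = 0.0443), and H2-Aa was 1.4-fold higher at 8 h. The log2 of their summed intensity was 7.95 to 8.50 in Raptor-deficient and 7.74 to 8.13 in wild-type samples unstimulated, 7.93 to 8.41 against 7.61 to 7.70 at 8 h, and 8.10 to 8.68 against 7.44 to 7.71 at 24 h. The B cell markers Ms4a1 and Cd22 were under the median of all values in every group. Of 6 measured NK cell markers, Klrd1 was 3.14-fold lower in unstimulated Raptor-deficient cells (adjusted p = 1.25e-05), where the summed level was 6.92 to 7.14 against 7.63 to 7.93 in wild type. Nkg7 was 1.62-fold higher at 24 h, and Ncr1, Klrb1c, Gzma and Tyrobp were under the median in every group. Of 7 myeloid markers 1, 2 and 2 were higher and none lower at the 3 times (S100a9 unstimulated, S100a8 and S100a9 at 8 h, Lyz2 and Fcer1g at 24 h). Of these markers Lyz2, S100a8, Itgam and Cd14 were under the median in every group. Of 4 regulatory T cell markers Ikzf2 was higher at all 3 times, by 1.54-fold, 2.77-fold and 2.28-fold, and Foxp3 was 1.71-fold higher and Nrp1 1.43-fold lower at 24 h. The summed level of the 4 at 24 h was 11.2 in each Raptor-deficient sample against 10.6 to 10.7 in wild type. Foxp3, Ikzf2 and Nrp1 averaged 8.31, 6.47 and 5.73 in these Raptor-deficient samples, so the sum was mostly Il2ra. Il2ra was under the median unstimulated in both genotypes and was not called between them by limma at any time. At 24 h its unadjusted p was under 0.05, as it was for all 4 regulatory T cell markers. Among follicular helper and memory markers at 24 h, Cd44 was 1.74-fold higher in Raptor-deficient cells (adjusted p = 9.36e-05) and Cxcr5 1.51-fold lower with both means near background. Of the CD4 T cell markers, Cd4 was 1.29-fold and 1.28-fold lower in unstimulated and 8 h Raptor-deficient cells, and Thy1 1.62-fold and 1.31-fold lower at 8 h and 24 h. Of 2 CD8 T cell markers none was called by limma, with 1, 2 and 0 at an unadjusted p under 0.05 at the 3 times. None of 3 dendritic cell, 1 gamma delta T cell, 1 erythroid and 5 liver markers was called or had an unadjusted p under 0.05 at any time.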

How the data were processed

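RNA of 24 samples was measured with 1 array each. The deposited values are log2 intensities, which the authors made with RMA and Partek 6.5, per the submitters' processing notes, and no further normalization was done here. Of 45141 probe sets 28898 carried 1 gene symbol, and each of 17097 genes was represented by its brightest probe set on average over the arrays, with no filter on dim ones. In R 4.3.3, limma 3.58.1 fitted 6 group means to all samples (18 residual degrees of freedom) with empirical Bayes moderation. Tests were two-sided, with Benjamini-Hochberg adjustment over all genes within each of 12 comparisons, or over all probe sets for single probe sets, and a call at an adjusted p under 0.05. The number of arrays limits the precision. The receptor genes, the 4 gene lists, the 11 marker lists, the tests and the alternatives were chosen with earlier results of these data known. Genes named are all receptor genes, Rptor, Cd69, the 3 genes most like each receptor gene, at most 4 called genes with the smallest p from each list, called markers, and markers named for their level. Some genes of the lists were not analysed here.

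Tested on simulated data for Raptor-deficient against wild type at 24 h over 17097 genes, the fit found 77.6% of 67 genes that were shifted 1.5-fold, 98.5% of 67 shifted 2-fold and all 66 shifted 4-fold, and it made 4 false calls. The simulated noise was independent between genes, with the same SD of a gene in all groups. The measured arrays differed in spread, and 3671 genes were called at 24 h, so these rates need not hold for the data. Alternatives were other rules for probe sets, filters, normalizations, fits and left-out samples. Whether same-numbered samples are paired is treated with the alternatives.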

Additional observations from a re-analysis of the deposited data

Results flagged for a closer look

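In 96 groups of 4 samples, 3 held a sample that stood far from the others by Dixon's criterion, where chance gives about 1 in 20 groups. They were the Icos probe set 1421930_PM_at in Raptor-deficient cells at 8 h, where 1 sample read 9.32 and the others 9.52 to 9.56, and in wild-type cells at 8 h, where 1 read 9.92 and the others 9.68 to 9.70. The third was the Cd160 probe set 1420396_PM_at in wild-type cells at 24 h, where 1 sample read 6.38 and the others 6.01 to 6.06.

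The response to stimulation differed between the genotypes, by a test of the difference itself, for 5 receptor genes. From unstimulated to 8 h the change was smaller in Raptor-deficient cells for Icos (-0.63 on the log2 scale), Pdcd1 (-1.01) and Cd200 (-0.80). From unstimulated to 24 h it was smaller for Pdcd1 (-1.01) and Cd200 (-1.13), and larger for Lag3 (0.59) and Cd6 (0.48).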

How the results depend on the processing

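Results of genes were recomputed under 34 other settings and those of single probe sets under 33. Over 10416 recomputed values of single genes and probe sets, 10224 kept direction and side of the threshold, 134 passed it anew and 58 no longer did, and 116 uncalled differences changed sign. The genotype differences of Ctla4 at all 3 times, of Pdcd1 and Cd200 at 8 h and 24 h, of Cd6 unstimulated and at 8 h, and of Btla at 24 h were called under all 34, with the largest adjusted p at 0.0377 (Cd6 unstimulated). Adjusted over all probe sets, Cd6 unstimulated lost its call with only the groups compared (adjusted p = 0.0533). With arrays centred on their medians, 7 receptor genes were called at 8 h, all lower in Raptor-deficient cells, which adds Cd28, Icos and Cd5. For the genotype difference in the change from 8 h to 24 h, where 0 were called (limma), 3 were called with the mean of all probe sets, 2 with the filter on genes at or above the median, 1 with cyclic loess, 1 with a robust prior and an intensity trend, 4 with array weights, 4 with only the groups compared and 1 with the replicate block (Lag3). Leaving out 1 replicate at a time gave 0 to 2 calls, and both 24 h groups without replicate 1 gave 1, as did Raptor-deficient unstimulated without replicates 2 and 3, both chosen after seeing the data. The Lag3 difference at 24 h was lost with cyclic loess and without Raptor-deficient 24 h replicates 1 or 3 or wild-type 24 h replicates 3 or 4 (adjusted p = 0.0045 to 0.0767 over all settings), and the Icos response difference without wild-type unstimulated replicate 4, Raptor-deficient 8 h replicate 4 or Raptor-deficient unstimulated replicates 2 and 3, and with only the groups compared (0.00255 to 0.0608). The cause was not tested.

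Over all genes, 332 were called between unstimulated groups, against 52 with only these groups and 179 with array weights. Leaving out unstimulated wild-type replicate 1, 2 or 3 gave 207, 216 or 196, and leaving out Raptor-deficient unstimulated replicate 3, alone or with replicate 2, gave 718. For the response to 8 h 1076 became 548 with only the groups compared, 1653 without Raptor-deficient unstimulated replicate 3 and 1671 without 2 and 3, and for the change from 8 h to 24 h 774 became 1294 with array weights. Centring changed the split of higher and lower calls from 707 and 1500 to 513 and 1849 at 8 h, from 1428 and 2243 to 1013 and 2696 at 24 h, from 4348 and 4148 to 5145 and 3065 for wild type at 24 h, from 331 and 745 to 225 and 1053 for the response to 8 h, and from 900 and 1370 to 587 and 1750 for that to 24 h. Same-numbered samples of different groups correlated at -0.09 to 0.32 in their deviations from the group means. In no pair of groups was every correlation over 0.1. Of these 60 correlations, 31 were highest for the own number, more than an equal share among the 4 numbers of a group would give. The highest was for replicate 3 of wild type 8 h and Raptor-deficient 8 h. Whether the numbers mark pairs was thus not settled. The main fit took no pairs, and the fit with the replicate block is among the alternatives. Genes near background, as Pdcd1, Lag3 and Cd200 unstimulated, are limited by signal.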
